A study of Homo sapiens with 12 samples.

Results

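The comparison described here set Cal27 cells that had been exposed to lysophosphatidic acid (LPA) and then to an inhibitor of focal adhesion kinase (FAK) against cells that had neither. Cal27 is an established human line grown from a tongue squamous carcinoma, and the labels call its genotype wild type (WT). In both groups the cells were kept on soft polyacrylamide gels (0.48 kPa, coated with collagen) for 5 days of conditioning and for 1 more day once replated. The LPA-to-FAKi cells had LPA during conditioning and the FAK inhibitor during the day after replating, and the soft-to-soft cells had no treatment in either phase. The members were chosen by their labels, as 6 of the 12 libraries of the series: 3 labelled LPA and FAK inhibitor against 3 untreated, paired by replicate number. Of 25382 gene symbols 15437 passed a filter on low counts and were tested. The other 6 libraries are 3 with LPA during conditioning and no inhibitor (LPA-to-soft) and 3 from cells conditioned on gels of 20 kPa and replated on soft ones. The series design places both groups among cells without memory of their conditioning, so the comparison asks how far cells that were given LPA and then a FAK inhibitor differ from cells never stimulated. The labels name neither the inhibitor nor a dose of it or of LPA, and they do not say whether a replicate number marks a separate culture. The p-values therefore measure the spread between these libraries, which may be technical. Since LPA and the inhibitor were both given to one group and neither to the other, their effects cannot be told apart in this contrast. The LPA-to-soft libraries (n = 3) are set beside it for that reason.

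LPA is a lipid that signals through G protein-coupled receptors to the small GTPase RhoA and to actomyosin contraction. FAK, encoded by PTK2, is a tyrosine kinase that is recruited to clustered integrins at focal adhesions and passes adhesion signals on to Src and the ERK pathway. In squamous epithelia, integrin adhesion holds keratinocytes in a basal state, Notch signalling between neighbouring cells goes with suprabasal differentiation, and matrix metalloproteinases and the factor SNAI2 are known from migrating and invading cells.

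Total counts ran from 62953957 to 119741813 in the soft-to-soft libraries and from 76083175 to 122311183 in the LPA-to-FAKi libraries. Of the counts from 1 to 19, 42.9% and 42.2% were even in soft-to-soft replicates 1 and 2, against 96.8% to 97.8% in the other 10 libraries, so low counts followed another pattern in 2 of the 3 control libraries. The number of calls is therefore also given without these 2 libraries and after halving the counts of the rest. Cell identity was checked against marker lists. The 10 squamous epithelial markers summed to 8397 to 15800 CPM (depth-scaled counts, with TMM scaling) in LPA-to-FAKi and 11230 to 17050 CPM in soft-to-soft, with 0 of them at a count of 0 in any of these libraries. Fibroblast markers summed to 16.7 to 25.2 CPM in LPA-to-FAKi and 14.7 to 36.6 CPM in soft-to-soft. Endothelial markers summed to 20.5 to 36.7 CPM and 28.7 to 42.9 CPM. Of the 9, EGFL7 (14.4 to 20.5 CPM), CDH5 (4.4 to 19.5 CPM), VWF (1.12 to 4.51 CPM) and ENG (0.159 to 1.15 CPM) had counts in all 6 libraries, TEK was at 0 in all 6, and PECAM1, KDR, CLDN5 and TIE1 were at 0 in 4 or 5. Leukocyte markers summed to 21.4 to 50.4 CPM in LPA-to-FAKi and 16.8 to 22.5 CPM in soft-to-soft, and among the 12 the genes PTPRC, CD3D, CD3E, MS4A1 and NKG7 were at 0 in all 6 libraries. The myeloid markers CD14 (1.51 to 5.41 CPM), ITGAM (1.31 to 3.51 CPM) and CSF1R (0.621 to 2.85 CPM) had counts in all 6 libraries. CSF1R was not called by edgeR, at 1.02 ± 0.324 (adjusted p = 0.163), and was higher in 3 of 3 pairs. Most of the leukocyte sum was CD68, a lysosomal membrane glycoprotein, at 41.9, 29.4 and 15 CPM in replicates 1, 2 and 3 of LPA-to-FAKi and 11.4, 17 and 10.9 CPM in soft-to-soft (log2 fold change 1.08 ± 0.221, edgeR adjusted p = 0.0641, voom adjusted p = 0.0491), and the part of these markers in other results was not tested.

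The transcript of the inhibited kinase itself did not pass the test. PTK2 stood at 44.8, 46.4 and 50.1 CPM in replicates 1, 2 and 3 of LPA-to-FAKi and at 46.9, 46.2 and 56 CPM in soft-to-soft (log2 fold change -0.07 ± 0.0596, edgeR adjusted p = 0.563). A kinase inhibitor acts on the protein, so this level does not check the labels. The LPA receptors had log2 fold changes of 0.06 for LPAR1, 0.09 for LPAR2, 0.06 for LPAR3, -0.04 for LPAR5 and -0.58 for LPAR6, and 0 of them passed the test (edgeR adjusted p from 0.396 to 0.953).

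Genes were tested with edgeR, by its quasi-likelihood test in a model of the 4 conditions of the series with replicate number as a block, over all 12 libraries. Calls were made at an adjusted p (Benjamini-Hochberg) under 0.05, and fold changes are log2 values ± SE. Of 15437 genes tested, 24 rose and 63 fell in LPA-to-FAKi against soft-to-soft, which is 0.564% called in either direction, 0.155% higher and 0.408% lower. The called log2 fold changes ran from -3.43 to -0.34 and from 0.29 to 1.35, with adjusted p between 0.0111 and 0.0497. The direction agreed across 3 of 3 replicate pairs for all 87 genes, as it did for 35.1% of all genes tested, and the block favours such genes. The CPM of the 3 and 3 libraries did not overlap for 21 of the 87, 9 higher and 12 lower, against 6.16% of all genes tested.

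**Figure D1:**
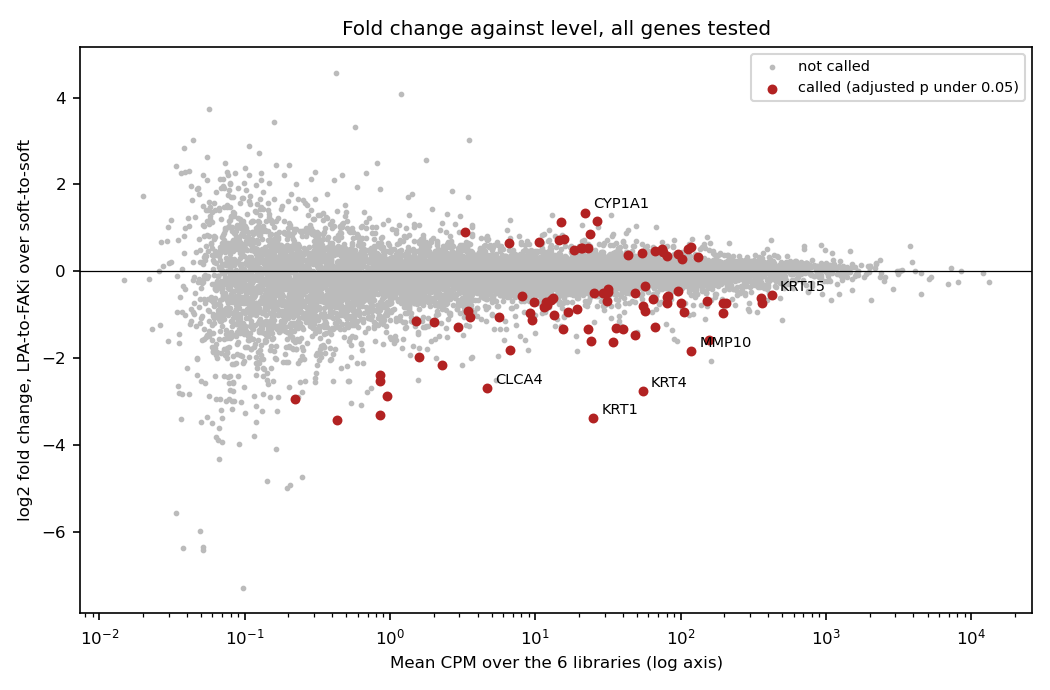
Log2 fold change of LPA-to-FAKi over soft-to-soft (vertical axis) against mean CPM over the 6 libraries (horizontal, log axis) for the 15437 genes tested, one point per gene. The 87 called genes are red, 63 below 0 and 24 above it, and 81 of them had a mean of at least 1 CPM.

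The number of calls depended on the fit and on single libraries. Without the replicate block edgeR called 0 genes, with 548 at an unadjusted p under 0.05 against 2559 with the block. The 2559 are 16.6% of all genes tested, the share to set beside such counts in the lists below. With the block DESeq2 called 704 genes, which included all 87, and limma voom called 176, which included 85. Without soft-to-soft replicate 3 edgeR called 0 genes. It called 8 without soft-to-soft replicate 1, 13 without LPA-to-FAKi replicate 1 and 28 without LPA-to-FAKi replicate 2. Without soft-to-soft replicate 2 it called 307, and without LPA-to-FAKi replicate 3 it called 211. Without both soft-to-soft replicates 1 and 2, which leaves 1 control library, it called 0. The 87 genes kept the sign of their fold change in each of these fits, but most of these fits share the libraries that chose them. After halving of the counts in all libraries but soft-to-soft replicates 1 and 2, 99 genes were called, among them all 87.

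**Figure D2:**
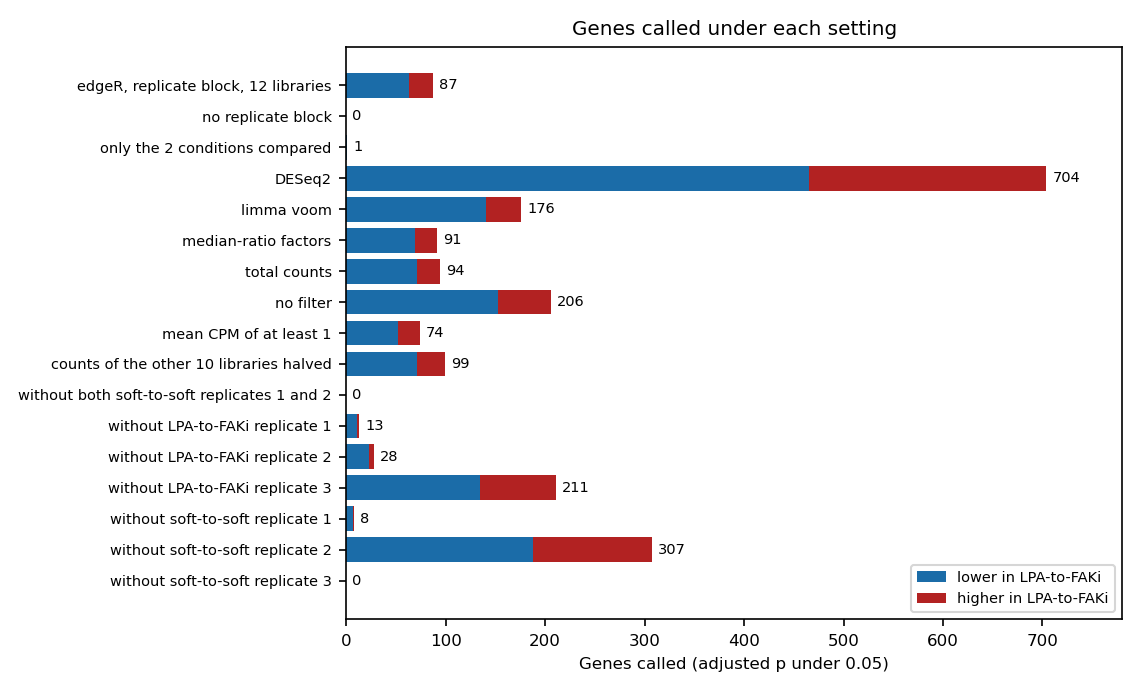
Genes called in LPA-to-FAKi against soft-to-soft under each setting, as bars from 0, split into lower (blue) and higher (red), with the total beside each bar. The count was 87 with edgeR, the block and all 12 libraries, and it ranged from 0 to 307 when 1 library of the comparison was left out.

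Among the genes that rose were a cytokine, a drug-metabolising enzyme and an ion channel. CSF2, which encodes the cytokine GM-CSF, stood at 30.3, 58.7 and 21.4 CPM in replicates 1, 2 and 3 of LPA-to-FAKi and at 11.5, 23.5 and 12.8 CPM in soft-to-soft. Each treated library was above its numbered control, but replicate 3 of LPA-to-FAKi lay below replicate 2 of soft-to-soft, so the groups overlapped. The rise was 1.16 ± 0.126 (edgeR adjusted p = 0.0111). CSF2 was the 1 member that edgeR called among 39 NF-kB and cytokine genes (2.56%, beside 0.155% higher over all genes tested), whose median was -0.07. In this list voom called 1 gene higher and 1 lower, and DESeq2 called 3 higher and 1 lower. The pair medians of that list were -0.54, 0.44 and -0.16 in replicates 1, 2 and 3. CYP1A1, a cytochrome P450 that is the classic target of the aryl hydrocarbon receptor (AHR), stood at 30.1, 39.2 and 23.3 CPM against 15.3, 17.8 and 6.31 CPM, with all treated libraries above all controls, and rose by 1.35 ± 0.251 (edgeR adjusted p = 0.0456). KCNN4, the intermediate-conductance calcium-activated potassium channel, stood at 22.6, 19.9 and 18.1 CPM against 6.79, 14 and 8.28 CPM without overlap and rose by 1.14 ± 0.182 (edgeR adjusted p = 0.0253).

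**Figure D3:**
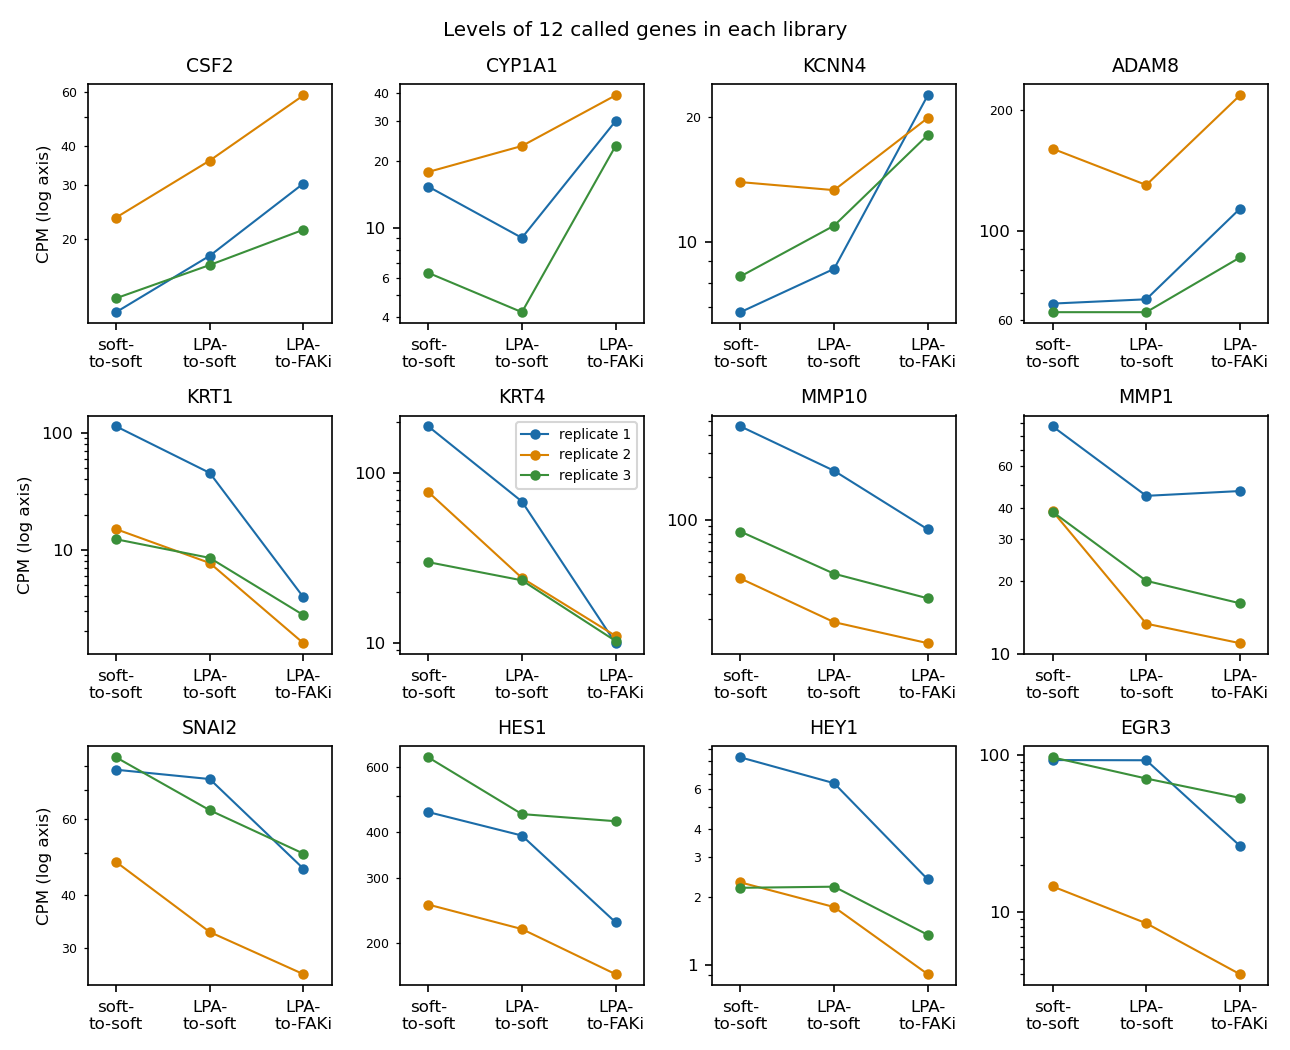
CPM (vertical, log axes that differ between panels) of 12 called genes in libraries of the LPA-to-FAKi, LPA-to-soft and soft-to-soft conditions, with lines joining libraries of the same replicate number. CSF2, CYP1A1, KCNN4 and ADAM8 were higher in LPA-to-FAKi than in soft-to-soft in 3 of 3 pairs, and the other 8 genes were lower in 3 of 3 pairs.

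The membrane protease ADAM8, a sheddase of the ADAM family, stood at 113, 217 and 85.8 CPM against 65.9, 159.9 and 62.7 CPM and rose by 0.56 ± 0.0999 (edgeR adjusted p = 0.039). Replicate 2 was the highest in both groups, and the groups overlapped. Of the other genes that rose, CCRL2 (an atypical chemerin receptor, 0.91), PAX8 (a paired box factor, 0.67), the amino acid transporter SLC38A5 (0.74) and the kinesin KIF3C (0.54) had no overlap between groups. MGLL, the lipase that breaks down monoacylglycerols, rose by 0.71, with 26, 21.9 and 7.52 CPM against 14.1, 12.4 and 5.71 CPM, so that replicate 3 was low in both groups. The sterol-sensing nuclear receptor NR1H3 rose by 0.66, the lipid raft protein RFTN1 by 0.54, the neuropeptide gene NMB by 0.53, the hexosamine enzyme GFPT2 by 0.52 and the junctional protein gene KIAA1462 by 0.86. The edgeR adjusted p of these 10 genes lay between 0.0192 and 0.0459. Named after their values were seen, the membrane-bound myosin MYO1E (0.52), the actin-associated PDLIM4 (0.44), the membrane-bending protein BIN1 (0.38), the p21-activated kinase PAK6 (0.35), the haem synthesis enzyme ALAS1 (0.41), the cotransporter SLC12A7 (0.41), the mitochondrial sulfide oxidase SQRDL (0.32) and thrombomodulin THBD (0.29) also rose. MMD (0.48) and TPRA1 (0.47) complete the 24. PDLIM4, SQRDL and TPRA1 likewise had no overlap between groups.

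Among called genes with a mean of at least 1 CPM, the suprabasal keratins KRT1 and KRT4 had the largest falls. KRT1, the type II keratin of the spinous layer, stood at 3.91, 1.58 and 2.75 CPM in replicates 1, 2 and 3 of LPA-to-FAKi and at 114, 15 and 12.3 CPM in soft-to-soft. No treated library reached the lowest control, and soft-to-soft replicate 1 was far above the other controls. The fall was 3.38 ± 0.534 on the log2 scale (edgeR adjusted p = 0.0251). KRT4, the type II keratin of non-cornified oral and oesophageal epithelium, stood at 9.93, 11 and 10.2 CPM against 189, 77.6 and 29.9 CPM. Its 3 treated libraries were nearly equal while the controls were spread, the groups did not overlap, and it fell by 2.75 ± 0.484 (edgeR adjusted p = 0.0383). ZNF750, a transcription factor of terminal epidermal differentiation, stood at 70.5, 38.1 and 101 CPM against 199.9, 58.2 and 166 CPM and fell by 0.93 ± 0.154 (edgeR adjusted p = 0.0295), with overlap between the groups.

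The wider differentiation list held both signs. Of 49 keratinocyte differentiation genes tested, 3 fell, 0 rose and 46 were not called (6.12% called, beside 0.408% lower over all genes tested), with 28 negative and 21 positive fold changes and a median of -0.23, beside 0.002 for all genes tested. The median of pair differences was 0.02, -0.53 and -0.15 in replicates 1, 2 and 3, and without both soft-to-soft replicates 1 and 2 the list median was 0.17. Of 27 basal keratinocyte genes 2 fell (7.41%, beside 0.408%), with 23 negative values and a median of -0.23. Their pair medians were -0.16, -0.60 and 0.01 in replicates 1, 2 and 3. The basal keratin KRT15 stood at 613, 209 and 224 CPM against 827, 318 and 346 CPM and fell by 0.55 ± 0.0731 (edgeR adjusted p = 0.0192). Replicate 1 was by far the highest in both groups, and the groups overlapped. The desmosomal cadherin DSC3 fell by 0.59 ± 0.112 (edgeR adjusted p = 0.0468). It was the 1 member called among 35 junction genes (2.86%, beside 0.408% lower over all genes tested), which had a median of -0.04. KRT5, the main type II keratin of basal cells, missed the threshold at -0.52 ± 0.101 (edgeR adjusted p = 0.0524), although its libraries did not overlap. The list of simple epithelial keratins had positive values in 8 of 8 tested genes, with a median of 0.59 and pair medians of 0.96, 0.62 and 0.28. Of them edgeR called 0 (6 at an unadjusted p under 0.05, beside 16.6% of all genes tested), voom 0 and DESeq2 5. KRT18 stood at 0.57 ± 0.126 (edgeR adjusted p = 0.0732). KRT80, which the list holds although it is not a classic simple keratin, stood at 0.72 ± 0.164 (edgeR adjusted p = 0.0764). In a bulk library, fewer cells of a state and less RNA per cell cannot be told apart.

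Stromelysin 2 and interstitial collagenase fell together with SNAI2. MMP10, the stromelysin, stood at 85.7, 13.4 and 27.8 CPM in replicates 1, 2 and 3 of LPA-to-FAKi and 459.8, 38.5 and 82.7 CPM in soft-to-soft. Replicate 1 was far the highest in both groups, so the groups overlapped, while each treated library lay under its numbered control. MMP10 fell by 1.83 ± 0.204 (edgeR adjusted p = 0.0111). MMP1, the collagenase, stood at 47.2, 11.1 and 16.2 CPM against 87.3, 38.9 and 38.7 CPM and fell by 1.34 ± 0.174 (edgeR adjusted p = 0.0192). SNAI2, the zinc finger factor known from epithelial-mesenchymal transition and from basal keratinocytes, stood at 46, 26.1 and 49.9 CPM against 78.2, 47.7 and 83.6 CPM. Its treated replicate 3 lay just above the lowest control, and it fell by 0.79 ± 0.089 (edgeR adjusted p = 0.0111).

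Among the 28 genes for matrix proteases and the plasminogen system, 2 fell (MMP1 and MMP10), 1 rose (ADAM8) and 25 were not called (10.7% called, beside 0.564% of all genes tested), with a median of -0.03. Of 26 genes of the partial mesenchymal programme known from head and neck tumours 4 fell and 0 rose (15.4%, beside 0.408% lower over all genes, median -0.10): MMP1, MMP10, SNAI2 and the semaphorin SEMA3C, at -0.51 ± 0.0784. The 13 mesenchymal factors and cadherins had a median of -0.06 with SNAI2 as the 1 call (7.69%, beside 0.408% lower over all genes). SNAI2 was also the 1 call among 30 TGF-beta and BMP response genes (3.33%, beside the same 0.408%, median -0.16). Of 32 neural adhesion and guidance genes, 3 fell (9.38%, beside the same 0.408%): SEMA3C, SEMA3F (-0.34 ± 0.0599) and the receptor phosphatase PTPRZ1, at 10.1, 7.04 and 18.4 CPM against 49.4, 23.6 and 35.6 CPM without overlap (-1.61 ± 0.302, edgeR adjusted p = 0.0459). Extracellular matrix genes had 27 of 36 negative values and a median of -0.15, with 0 called by edgeR (12 at an unadjusted p under 0.05, beside 16.6% of all genes tested), 0 by voom and 3 by DESeq2. Their pair medians were -0.25, -0.24 and 0.11. FN1, which encodes fibronectin, stood at 45.4, 90.1 and 155 CPM against 50.6, 75.8 and 124 CPM (0.14 ± 0.103, edgeR adjusted p = 0.514), with replicate 3 highest in both groups. The fibronectin-binding integrins were not called either, at 0.18 for ITGA5, -0.10 for ITGAV, -0.09 for ITGB1 and -0.05 for ITGB6.

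The MMP10 promoter is shown because an AP-1 site close to the start is a known feature of stromelysin and collagenase genes. The motif searched was TGANTCA, which reads alike on both strands. It was found in the 250 bases before 6.57% of all 35116 gene starts in the RefSeq promoter table (GRCh38.p14). Of the 2 genes called in the protease list that the table holds, 1 had it before at least 1 start. Capitals mark the motif, and the window is chr11:102780664-102780720, minus strand.
MMP10: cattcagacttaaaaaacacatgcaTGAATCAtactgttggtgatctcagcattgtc

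Notch pathway targets fell as a group of 4. In Notch signalling a ligand on one cell binds the receptor on the next, proteases then cut the receptor, and the freed intracellular part joins the DNA-binding protein RBPJ to switch on repressors of the HES and HEY families and the feedback inhibitor NRARP. HES1 stood at 227, 164 and 428 CPM in replicates 1, 2 and 3 of LPA-to-FAKi and at 453, 254 and 638 CPM in soft-to-soft, with replicate 3 highest and replicate 2 lowest in both groups. It fell by 0.73 ± 0.111 (edgeR adjusted p = 0.0251). NRARP stood at 189, 89.6 and 183 CPM against 323, 137 and 319 CPM and fell by 0.73 ± 0.0983 (edgeR adjusted p = 0.0192). HEY1, at 2.39, 0.911 and 1.36 CPM against 8.3, 2.32 and 2.2 CPM, fell by 1.29 ± 0.206 (edgeR adjusted p = 0.0253), and its level was low in all of these libraries but soft-to-soft replicate 1. HES2, which belongs to the same family of repressors, fell by 0.50 ± 0.0914 (edgeR adjusted p = 0.0401). Each of the 4 genes overlapped between the groups and was lower in 3 of 3 pairs.

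Of the 20 tested genes of the Notch list, 4 fell, 0 rose and 16 were not called, a share of 20% against 0.408% lower over all genes. Negative values numbered 16, the median was -0.37, and the pair medians were -0.54, -0.55 and -0.08, so the list as a whole was lower mostly in replicates 1 and 2. Among the members not called, the ligand gene JAG1 stood at -0.41, the glycosyltransferase LFNG at -0.44 and the receptor NOTCH1 at -0.30. The RBPJ motif GTGGGAA, searched on both strands in the 250 bases before the start, occurred before 5.43% of the 35116 starts of the table. Of the 3 called Notch genes the table holds, 1 had it before at least 1 start. The HES1 window is printed because HES1 is the best-known direct target. Capitals mark the motif, at chr3:194136038-194136094, plus strand (GRCh38.p14, RefSeq).
HES1: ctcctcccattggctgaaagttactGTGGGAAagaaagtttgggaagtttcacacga

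Immediate early genes, which serum, adhesion and growth factors switch on within minutes through ERK and SRF, had mostly negative values. Of 37 tested, 4 fell, 0 rose and 33 were not called (10.8% called, beside 0.408% lower over all genes tested). Negative values numbered 34, the median was -0.29, and the pair medians were -0.46, -0.24 and -0.33, below 0 in every pair. EGR3, a zinc finger factor, stood at 26.4, 4.01 and 53.5 CPM against 93.2, 14.6 and 97 CPM and fell by 1.46 ± 0.229 (edgeR adjusted p = 0.0251). Replicate 2 was low in both groups. NR4A3, an orphan nuclear receptor, fell by 2.39 ± 0.42 (edgeR adjusted p = 0.0382) from levels of 2.42, 0.238 and 1.73 CPM. The endosomal small GTPase RHOB, at 60.4, 47.2 and 89.4 CPM against 109, 61.6 and 125 CPM, fell by 0.57 ± 0.103 (edgeR adjusted p = 0.0401), and HES1, described with the Notch genes, is the remaining call. BTG2, an antiproliferative gene, was not called at -1.35 ± 0.294 (edgeR adjusted p = 0.0732). The list of ERK feedback inhibitors had 12 of 18 positive values, a median of 0.12 and 0 edgeR calls (5 at an unadjusted p under 0.05). DESeq2 called 3 of its members and voom 1: DUSP8, at -0.70, was called by both (voom adjusted p = 0.0307), and DUSP10, at 0.56, by DESeq2. The phosphatases DUSP8 and DUSP10 act mainly on the kinases JNK and p38, so their values are no readout of ERK feedback. The 12 genes of the EGF receptor family and its ligands had a median of 0.06 and 0 edgeR calls (4 at an unadjusted p under 0.05). DESeq2 called 2 of them, TGFA (0.47 in edgeR) and EPGN (-6.42 in edgeR), and voom 0. EPGN was near the floor, at 0 CPM in LPA-to-FAKi and a mean of 0.104 CPM in soft-to-soft.

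Interferon-stimulated genes held the most calls of any list. They are induced when interferon receptors activate a complex that holds IRF9 and binds a response element in the promoters. Of 50 tested, 9 fell, 0 rose and 41 were not called (18% called, beside 0.408% lower over all genes tested). Negative values numbered 49, and the median was -0.52 beside 0.002 over all genes tested. The pairs differed. The median was -0.77, -0.02 and -0.79 in replicates 1, 2 and 3, and 49, 26 and 50 of the 50 genes were lower in the respective pair. The groups overlapped for all 50 members, and over all genes tested only 6.16% had no overlap. Replicate 3 was the highest library of its group for each of the 9 called members.

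**Figure D4:**
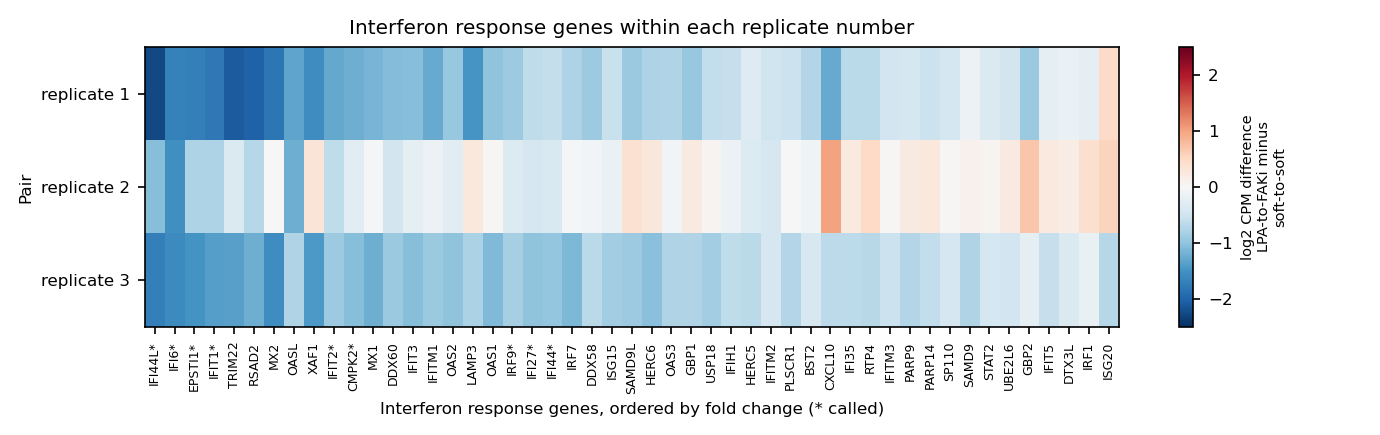
Differences in log2 CPM (LPA-to-FAKi minus soft-to-soft, colour scale) within each replicate number (rows) for 49 of the 50 interferon response genes (columns, ordered by fold change, called genes starred). Replicates 1 and 3 are blue nearly throughout, with 49 and 50 of the whole list of 50 lower, and replicate 2 is mixed, with 26 of the 50 lower.

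IFI6, an antiviral membrane protein, stood at 47.4, 25.4 and 161 CPM in replicates 1, 2 and 3 of LPA-to-FAKi and at 152, 73.6 and 483 CPM in soft-to-soft, and fell by 1.59 ± 0.22 (edgeR adjusted p = 0.0192). IFIT1, which binds viral RNA that lacks a host cap, stood at 14.7, 26.3 and 73.6 CPM against 50.4, 45.2 and 190.0 CPM and fell by 1.27 ± 0.19 (edgeR adjusted p = 0.025). Both were lower in every pair, with the smallest step in replicate 2 for IFIT1. IFI44L stood at 6.39, 4.81 and 36.2 CPM against 30.5, 10 and 119 CPM and fell by 1.63 ± 0.254 (edgeR adjusted p = 0.0251), and EPSTI1 fell by 1.33 ± 0.191 (edgeR adjusted p = 0.0233). Named after their values were seen, IFIT2 (-0.92), the nucleotide kinase CMPK2 (-0.87), IFI27 (-0.68), IFI44 (-0.64) and IRF9 (-0.69), the DNA-binding subunit of that complex, were the other calls. DHX58, a helicase of RNA sensing that stood outside the list and was likewise named later, fell by 0.62. The 18 genes of MHC class I presentation had 15 negative values, a median of -0.15 and 0 edgeR calls (7 at an unadjusted p under 0.05, 1 DESeq2 call, 0 by voom). The 17 complement genes had a median of -0.25 and 0 edgeR calls (5 at an unadjusted p under 0.05), with 4 by DESeq2 and 1 by voom. Pair medians in replicates 1, 2 and 3 were -0.48, 0.06 and -0.10 for MHC class I and -0.92, 0.07 and -0.07 for complement.

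The interferon-stimulated response element is shown in the called genes to let a reader see what they share in sequence. Its core was searched as 2 runs of GAAA with any 2 bases between them, on both strands (TTTC on the other), in the 250 bases before the start, with overlapping matches allowed. It occurred before 3.02% of the 35116 starts in the RefSeq table (GRCh38.p14), and before at least 1 start of 6 of the 8 called interferon genes that the table holds. The first share counts starts and the second counts genes. The list was assembled from known interferon targets, so a shared element was to be found and is a description only. Capitals mark the core. The windows lie at chr10:89392482-89392554, plus strand, at chr1:27672314-27672373, minus strand, at chr1:78620259-78620318, plus strand, at chr13:42992257-42992316, minus strand and at chr14:94110603-94110675, plus strand. IFIT1 and IFI27 each hold 2 cores in the window, in opposite orientation in IFI27. The searched bases of IFI6 hold 3 cores and those of IFI44L 2, of which 1 each lies in the window. The window of IFI44 is not printed.
IFIT1: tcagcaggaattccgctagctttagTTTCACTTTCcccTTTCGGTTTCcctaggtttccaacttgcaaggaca
IFI6: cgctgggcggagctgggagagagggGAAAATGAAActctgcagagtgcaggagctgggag
IFI44L: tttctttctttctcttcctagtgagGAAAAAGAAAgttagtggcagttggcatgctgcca
EPSTI1: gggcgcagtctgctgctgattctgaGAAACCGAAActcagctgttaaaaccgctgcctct
IFI27: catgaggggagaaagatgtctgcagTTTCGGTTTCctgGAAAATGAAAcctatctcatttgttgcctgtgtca

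CYP1A1 was the 1 call in its pathway. AHR is a ligand-activated factor that pairs with ARNT and induces cytochrome P450 genes and its own repressor. Of 10 tested genes of the list 1 rose and 9 were not called (10%, beside 0.155% higher over all genes, median 0.10). The other P450 gene of the pathway, CYP1B1, stood at 0.67 ± 0.165 (edgeR adjusted p = 0.0934), the repressor AHRR at 0.70 ± 0.253 (edgeR adjusted p = 0.211) and AHR itself at -0.72 ± 0.164 (edgeR adjusted p = 0.0769). Among 28 NRF2 targets 1 fell (3.57%, beside 0.408% lower over all genes), while 21 had positive values (median 0.09). The gene that fell was the aldo-keto reductase AKR1B10 (2.06, 1.73 and 4.84 CPM against 16.3, 6.42 and 9.07 CPM without overlap, -1.82 ± 0.322, edgeR adjusted p = 0.0387). AKR1B10 has a near-identical neighbour with which it can share reads. The ferritin chains FTL and FTH1 stood at 0.52 and 0.59, and AKR1C1 at 1.18, none called. The dioxin response element core GCGTG, searched on both strands in the same 250 bases, occurred before 32.2% of the 35116 starts, and the CYP1A1 window at chr15:74725556-74725610, minus strand (GRCh38.p14, RefSeq) holds 1, in capitals.
CYP1A1: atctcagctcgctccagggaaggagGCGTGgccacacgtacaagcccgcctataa

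Other genes that fell belong to several roles. CLCA4, a secreted protein of differentiated squamous and intestinal epithelium, fell by 2.69 ± 0.427, at 2.47, 0.309 and 0.252 CPM against 22.3, 1.42 and 1.24 CPM, where replicate 1 was far above the rest. The P-type transport ATPases ATP13A4 and ATP10B fell by 2.16 and 1.98, also with replicate 1 highest in both groups. PRODH, the first enzyme of proline breakdown, stood at 14.3, 6.15 and 17.4 CPM against 53.6, 14.7 and 32.4 CPM and fell by 1.32 ± 0.172 (edgeR adjusted p = 0.0192). The genes from here to the end of the paragraph were named after their values were seen. MALAT1, an abundant nuclear long non-coding RNA, stood at 247, 90.4 and 69.4 CPM against 427, 183 and 149 CPM and fell by 0.97 ± 0.114 (edgeR adjusted p = 0.0129). The neurotrophin receptor NGFR, a marker of basal stem-like keratinocytes, stood at 12.5, 14 and 37.8 CPM against 49.4, 34 and 66.4 CPM and fell by 1.30 ± 0.224. The cyclin gene CCNL1 fell by 0.72, the secreted protease HTRA1 by 0.82, the proprotein convertase PCSK5 by 0.95, the hedgehog co-receptor BOC by 1.05, the atypical small GTPase RHOV by 0.73 and the sodium pump subunit ATP1B3 by 0.62. Among transcription factors RUNX3 fell by 0.70, FOXQ1 by 0.74 and BARX2 by 0.47. The planar polarity gene PRICKLE1 fell by 0.77, the mucin-type glycosyltransferase GCNT3 by 1.01 and the actin-binding POF1B by 1.11. Others that fell were IFFO2 (-0.45), UAP1L1 (-0.50), SSBP2 (-0.57), RNF207 (-0.67), FAM46B (-0.71), MSRB3 (-0.92), PALMD (-0.97), PAQR6 (-1.05), BTNL9 (-1.14) and C12orf54 (-1.17).

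The 6 called genes with a mean under 1 CPM were NR4A3, the short-chain dehydrogenase DHRS2 (-3.43), the cytochrome P450 genes CYP4Z1 (-3.30) and CYP4B1 (-2.86), the semenogelin gene SEMG1 (-2.53) and LOC148709 (-2.95). These 6 all fell, and DHRS2 had the lowest fold change of the 87, at 0.0255, 0.065 and 0.126 CPM in replicates 1, 2 and 3 of LPA-to-FAKi against 0.991, 0.652 and 0.735 CPM. CYP4Z1 has a near-identical copy with which it can share reads. Of the 87 symbols 1 had been turned into a date by a spreadsheet and is not named.

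Lists closest to FAK and contractility held no edgeR call, beside 0.564% of all genes tested called. At an unadjusted p under 0.05 stood 3 of 37 genes of focal adhesion, 2 of 17 integrins, 6 of 26 SRF/MRTF targets and 5 of 23 YAP/TAZ targets. Over all genes tested this share was 16.6%. With so few genes called over all, an absence of calls in lists of this size is no result about them. Voom called 0 in these lists and DESeq2 called 1, SRF. The 37 genes for focal adhesion and FAK signalling had 23 positive and 14 negative values and a median of 0.05, with PARVA at 0.23 and LPP at 0.29. Integrin subunits had a median of -0.02 over 17 genes, SRF/MRTF targets and actin genes 0.01 over 26, and YAP/TAZ targets 0.06 over 23. CTGF, a YAP/TAZ target and matricellular protein, stood at 60.1, 58.8 and 231 CPM against 122, 108 and 329 CPM (-0.79 ± 0.202, edgeR adjusted p = 0.106). SRF, the factor of actin genes, stood at -0.29 ± 0.0649 (edgeR adjusted p = 0.0741). Each of the 4 lists had a median within 0.1 of that of all genes tested.

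**Figure D5:**
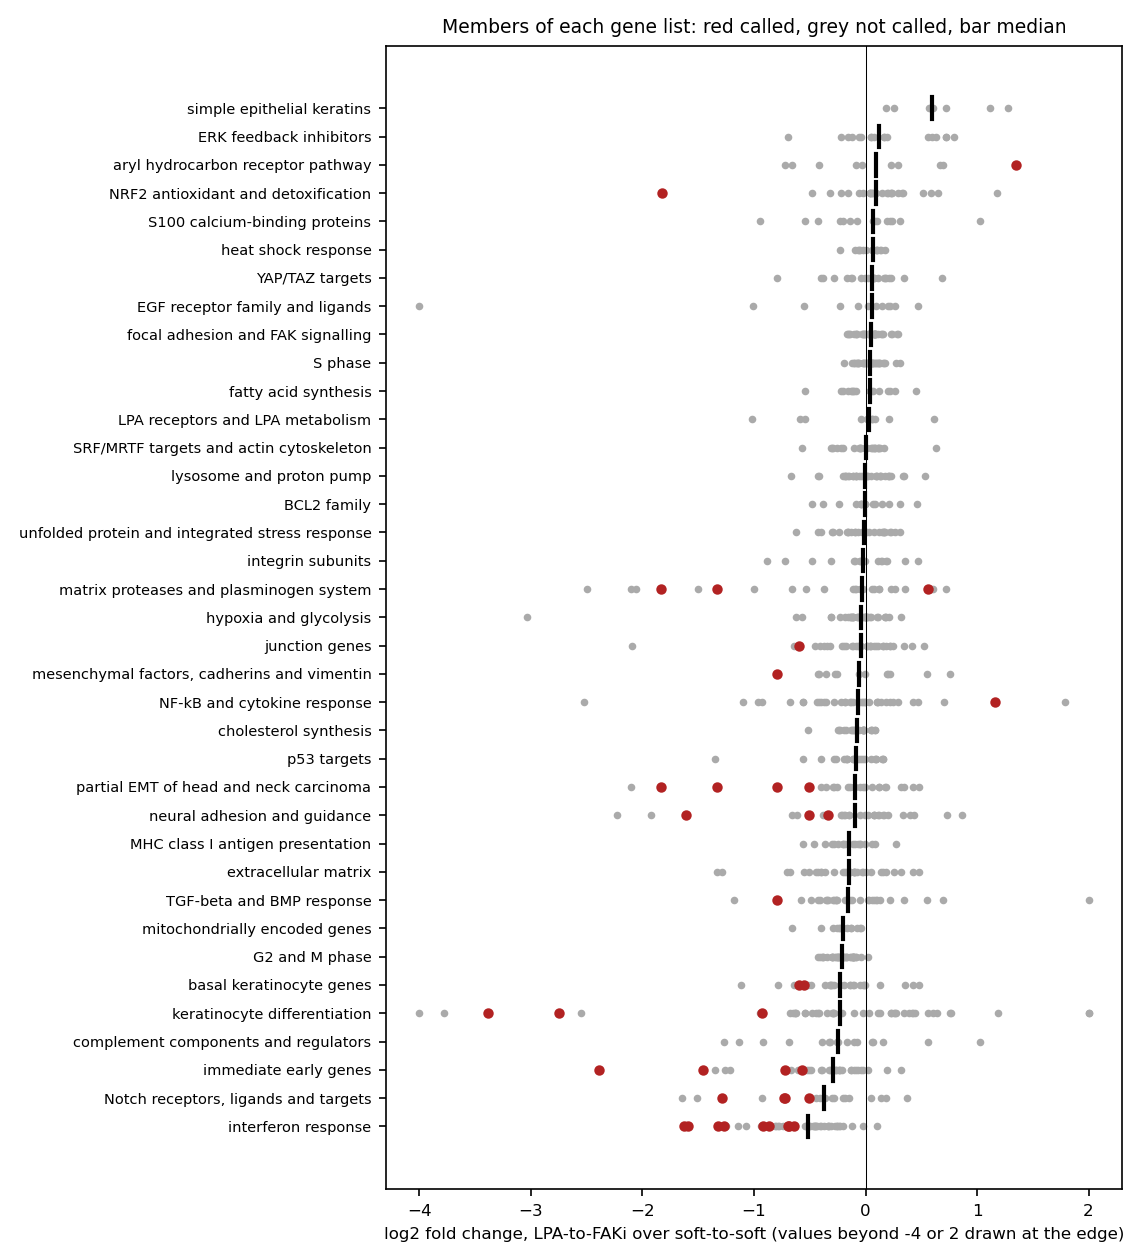
Log2 fold change of LPA-to-FAKi over soft-to-soft (horizontal axis) for the tested members of 37 gene lists, ordered by median. Red points are called genes, grey points are not called and black bars are medians, which run from -0.52 for the interferon response to 0.59 for the list of simple epithelial keratins.

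Genes of G2 and M phase had 39 of 40 negative values and a median of -0.21 with 0 edgeR calls (13 at an unadjusted p under 0.05, beside 16.6% of all genes tested), 0 by voom and 2 by DESeq2. Their pair medians were -0.52, -0.11 and -0.02, so the shift was largest in replicate 1 and near 0 in replicate 3. TOP2A, the topoisomerase of dividing cells, stood at 277, 309 and 311 CPM against 439.5, 366 and 348 CPM without overlap (-0.35 ± 0.105, edgeR adjusted p = 0.148), and NUSAP1 at -0.38 ± 0.111. S phase genes had a median of 0.04 over 40 genes. The 13 mitochondrially encoded genes were all negative with a median of -0.20, and mitochondrial counts made up 5.62%, 5.05% and 7.1% of replicates 1, 2 and 3 of LPA-to-FAKi and 8.01%, 4.4% and 8.22% of soft-to-soft. Metabolic and stress lists had 0 edgeR calls and medians of -0.07 for cholesterol synthesis, 0.04 for fatty acid synthesis, -0.04 for hypoxia and glycolysis, -0.01 for the unfolded protein and integrated stress response, 0.06 for heat shock and -0.003 for lysosome genes. Medians were -0.08 for p53 targets, -0.01 for the BCL2 family, 0.07 for S100 proteins and 0.03 for LPA receptors and metabolism, again with 0 edgeR calls. In all, 23 of the 37 lists had no edgeR call, and of these 14 held a DESeq2 call and 3 a voom call.

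LPA-to-FAKi was set against LPA-to-soft to ask whether these levels differ from those after LPA alone. The comparison shares the treated libraries with the first one, so the values are given side by side. In the same edgeR fit 0 of 15437 genes were called (0%), with a smallest adjusted p of 0.0752 and 3439 genes at an unadjusted p under 0.05. With the block limma voom called 37 genes, 21 higher and 16 lower, and DESeq2 called 1231, 640 higher and 591 lower. Of the 87 genes that differed from soft-to-soft, 17 were among the 37 that voom called out of all 15437. The shared treated libraries favour such an overlap. CYP1A1, at 9.04, 23.3 and 4.21 CPM in replicates 1, 2 and 3 of LPA-to-soft, was higher in LPA-to-FAKi by 1.45 (voom adjusted p = 0.0495, edgeR adjusted p = 0.0752). KRT1, at 45.5, 7.68 and 8.5 CPM in LPA-to-soft, was lower by 3.04 on the log2 scale in voom (adjusted p = 0.0419, edgeR adjusted p = 0.0757). The interferon genes IFI44L (-1.48), EPSTI1 (-1.18), IFIT1 (-1.08) and IFIT2 (-0.86), the Notch target HEY1 (-1.16), NGFR (-1.24), PRODH (-1.08), CLCA4 (-2.09), ATP13A4 (-2.15) and MALAT1 (-0.68) were lower by voom. For CLCA4 the difference was -1.405 in edgeR (adjusted p = 0.111) and -1.14 in DESeq2 (adjusted p = 0.129), so neither called it. It stood at 12.7, 0.346 and 0.493 CPM in replicates 1, 2 and 3 of LPA-to-soft, low in all but replicate 1. ADAM8 (0.65), SLC38A5 (0.88), MGLL (0.77), ALAS1 (0.38) and THBD (0.31) were higher, with voom adjusted p of these 17 genes from 0.0419 to 0.0495.

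Of the 87 genes, 81 had an unadjusted p under 0.05 against LPA-to-soft in edgeR, beside 22.3% of all genes tested. The 87 were chosen by values of the same treated libraries, which favours such a count, so it is a description only. The genes that follow were not called against LPA-to-soft by edgeR or voom, which does not show that they were equal, and DESeq2 called 4 of them: SNAI2 (adjusted p = 0.000761), CSF2 (0.000442), MMP10 (0.0289) and FN1 (0.000121). MMP1 stood at 45, 13.3 and 20.1 CPM in LPA-to-soft, and its log2 difference of LPA-to-FAKi from it was -0.17 (edgeR adjusted p = 0.6). NRARP stood at 258, 80.9 and 188 CPM (-0.12, edgeR adjusted p = 0.514) and HES2 differed by -0.17 (edgeR adjusted p = 0.296). For MMP10 the level was 223, 18.9 and 41.6 CPM and the difference -0.81 (edgeR adjusted p = 0.0853), and for SNAI2 74.4, 32.7 and 62.9 CPM and -0.46 (edgeR adjusted p = 0.0752). CSF2 stood at 17.6, 36 and 16.4 CPM in LPA-to-soft, with a difference of 0.64 (edgeR adjusted p = 0.0752). FN1, which was not called against soft-to-soft, stood at 85.2, 133 and 187 CPM in LPA-to-soft, above LPA-to-FAKi in 3 of 3 pairs (-0.58, edgeR adjusted p = 0.0752). The interferon list had a median of -0.50 against LPA-to-soft, with 49 of 50 negative, the Notch list -0.26, the immediate early list -0.17 and the differentiation list 0.18, of the opposite sign to its median against soft-to-soft. Over all genes tested this median was -0.004.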

How the data were processed

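The authors deposited whole-number read counts per gene symbol for 12 libraries and a log2 table. Per the submitters' processing notes, cutadapt, FastQC, STAR, HTSeq and DESeq2 were used with genome build hg19. Their versions, the annotation, the strand setting and the order of steps: not given in the sources used here. Hence overlapping or antisense genes may share reads. The deposited log2 values were log2 of 1 plus the scaled count, with a constant factor in each library (relative range 6.9e-09), and entered no test. Of 25382 symbols, 28 had been turned into dates.

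Genes were filtered with edgeR's filter by condition, scaled by TMM and tested with edgeR 4.0.16 in R 4.3.3 (glmQLFit, glmQLFTest) over all 12 libraries, with replicate number as a block. The comparison is defined as paired, and earlier results of these data had shown that libraries of one number deviate together. The block was therefore chosen partly from these same data. Deviations from condition means correlated with r from 0.366 to 0.54 over the 3 same-numbered pairs of the 2 groups, and from -0.482 to 0.037 over the 6 other pairs. Centring on a mean of 3 libraries pushes the other pairs below 0 where same-numbered pairs correlate, so the 2 ranges are not independent. The numbers come from the labels. Log2 CPM and pair differences used a prior count of 2. DESeq2 1.42.0 and limma 3.58.1 (voom) were alternatives, beside other scaling, filters and left-out libraries. The fit was also run on simulated counts that followed its own model, with an additive block and 1 dispersion. That run does not check the calls on these data.

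The comparison, the 41 gene lists (4 of them markers) and the tests were chosen with earlier results of these data known. Genes named were the 14 largest called changes in each direction with a mean of at least 1 CPM, up to 4 called members of each list by p (2 as values where none was called), and PTK2, LPA receptors, FN1 and its integrins. Others are said to be named after their values were seen, or are given as values. Promoter sequences come from RefSeq (GRCh38.p14). No hg19 coordinates were used. A few single genes are not reported here.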

Additional observations from a re-analysis of the deposited data

How the results depend on the processing

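The 87 calls of LPA-to-FAKi against soft-to-soft became 0 with no replicate block, 1 with only the libraries of the 2 conditions, 704 with DESeq2, 176 with limma voom, 206 with no filter and 0 without both soft-to-soft replicates 1 and 2, also over the same genes (0, an alternative chosen after seeing the data). They were 91 with median-ratio factors, 94 with total counts, 74 with a minimum mean of 1 CPM and 99 with halved counts, and 0 to 307 with 1 library left out. The 31 list members called became 0, 1, 130, 55, 66, 0 and 0 under the first 7 of these settings, and 0 to 82 with 1 library left out. Against LPA-to-soft, the 0 calls became 1231 with DESeq2, 37 with voom, 25 with no filter, 202 without both soft-to-soft replicates 1 and 2 and 138 over the same genes, and 0 to 62 with 1 library left out. Soft-to-soft libraries enter that contrast only through the shared spread and the block. The cause of these moves was not tested. Among the uncalled genes that were followed one by one through these settings, 6 turned sign with a library left out, where the fold change ranged from -0.022 to 0.130 for LPAR1, -0.125 to 0.220 for LPAR3, -0.303 to 0.171 for LPAR5, -0.239 to 0.036 for ITGAV, -0.252 to 0.158 for ITGB6 and -0.357 to 1.513 for DHRS9. All 87 called genes had the same sign in every fit that tested them. The 6 called genes under 1 CPM rest on the fewest counts.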

Other observations

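Set against LPA-to-soft, limma voom with the replicate block also called genes that were not called against soft-to-soft, while edgeR called 0 (3439 at an unadjusted p under 0.05). The retinol dehydrogenase DHRS9 was higher in LPA-to-FAKi by 2.81 ± 0.415 on the log2 scale (voom adjusted p = 0.0419), and the aldo-keto reductase AKR1C1 by 1.95 ± 0.332 (voom adjusted p = 0.0495). The decoy interleukin 1 receptor IL1R2 was higher by 1.62 and the Wnt acyltransferase PORCN by 0.72. The oxidase DUOX2 (-1.17), the cytokine receptor LIFR (-0.80), the myosin phosphatase subunit PPP1R12B (-0.66), the focal adhesion protein TNS3 (-0.42) and the kinase HIPK3 (-0.40) were lower. These genes were named after their values were seen.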
